A study of Drosophila melanogaster with 12 samples.

Results

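Heterotrimeric G proteins are the switches through which receptors with a chain of membrane-spanning helices act on the cell interior. The alpha subunit binds and cleaves GTP, the beta and gamma subunits stay together as a pair, and after activation both parts act on effectors such as adenylyl cyclases and phospholipase C. The JAK/STAT ligand Unpaired (UPD) uses a different route: it binds the receptor Domeless, which signals through the kinase Hopscotch to the transcription factor Stat92E. Galphaf, a divergent fly alpha subunit, was chosen here because its transcript was higher after UPD, and it is set beside the other subunits Galphai, Galphao, Galphaq, Galphas, cta, Gbeta13F and Ggamma1. Probe sets were taken where the array annotation named 1 of these 8 genes alone, by current symbol or synonym. That gave 8 probe sets of 6 genes, out of 18769 probe sets tested and 11983 genes with a probe set of their own. Galphaq had 3 probe sets and each other alpha subunit had 1. For 2 of the genes, Gbeta13F and Ggamma1, no probe set is listed, so these beta and gamma subunits were not analysed here. Other beta subunits are described further below. A further probe set annotated to cta and a second gene was not used.

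The cells were Kc167, an established Drosophila melanogaster line of embryonic origin with blood cell properties, so every value comes from a single line in culture. Wells of cells received medium conditioned with UPD, or Mock conditioned medium, for 30 min and were then returned to Schneider's medium. RNA was harvested 2, 4 or 10 h after the conditioned medium went on, and was hybridised to Affymetrix arrays. The 6 groups are UPD and Mock at each of these 3 times, with 2 biological replicates each and 12 arrays in all. The p-values rest on the spread between duplicates of 1 experiment's cells, pooled over the 6 groups. Levels are the deposited log2 values, on which a difference of 1 is a doubling. The scale has no floor, and levels of different probe sets are not comparable with each other. No label states whether the 2 media differed in anything besides UPD.

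The arrays limit the results in ways that touch the subunits. Replicates were tight at 2 h and loose at 10 h: the median SD of moderately bright probe sets was 0.056 to 0.063 at 2 h, 0.077 to 0.136 at 4 h and 0.398 to 0.456 at 10 h. The test described below pools 1 spread per probe set over all 6 groups. Its SEs at 2 and 4 h thus carry the loose 10 h arrays, and those at 10 h borrow from the tight early arrays. For Galphao the SE was 0.41 at both 2 and 10 h, while its replicate SD was 0.05 to 0.06 and 0.48 to 0.67. Among the 9384 probe sets whose mean level exceeded the median (bright probe sets), the median difference between UPD and Mock was −0.11 at 2 h, 0.02 at 4 h and −0.41 at 10 h, and the median difference between 10 and 2 h was −0.41 in Mock and −0.80 in UPD. Quantile normalization brought all of these to within 0.03 of 0, so differences at 10 h are read against these medians. The difference was more negative for long genes: the UPD 10 h minus 2 h median was −0.33 in the shortest tertile of genes, −0.93 in the middle tertile and −1.37 in the longest tertile. Galphaf, Galphai, Galphao, Galphaq and cta lie in the longest tertile and Galphas in the middle tertile. The signal of the 3′ over the 5′ end of Act5C, a control for RNA integrity, was 0.71 to 0.89 at 2 h. It was 0.72 to 1.17 at 4 h, where 1.17 was Mock replicate 1, and 1.14 to 1.37 at 10 h, highest on the UPD 10 h arrays. The mean of the hybridisation spike controls was 7.63 on Mock 4 h replicate 2 and 9.06 to 9.93 on the other arrays. That array enters every difference between media at 4 h. Of 11 blood cell marker genes, 9 lay above the median level, among them srp at 7.80 to 9.61 and Hml at 7.26 to 10.58, while He and NimC1 never exceeded 3.56. Of the other markers, 2 of 3 neuronal genes, 0 of 2 muscle genes and 1 of 2 fat body genes lay above it; the neuronal gene nSyb was at −5.43 to −1.13, though elav reached 7.82. In the test described below, 6 of the 11 blood cell markers and 2 of the 3 neuronal genes fell between 10 and 2 h in UPD, where 8.46% of all probe sets did, and 4 of the 11 blood cell markers were lower after UPD than after Mock at 10 h, where 0.954% of all probe sets were. In such bulk RNA, fewer cells of a type and less RNA per cell cannot be told apart. The part of RNA quality, hybridisation, gene length or culture state in the values that follow was not tested.

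Galphaf stood higher after UPD than after Mock at all 3 times. Its single probe set read 5.47 and 5.68 after UPD against 4.44 and 4.06 after Mock at 2 h. At 4 h it read 6.50 and 6.40 after UPD against 3.58 and 3.89 after Mock, and at 10 h 6.07 and 6.95 against 3.46 and 3.21. Every one of the 6 UPD arrays lay above every one of the 6 Mock arrays. This complete separation, with UPD on top, was found for 21 of 18769 probe sets (0.112%). Since Galphaf was chosen for its higher level after UPD, these values describe the choice and are given with no test.

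The distance between the media was widest at 10 h and narrowest at 2 h. Mean levels were 5.58 ± 0.15 (SD, n = 2) after UPD and 4.25 ± 0.27 after Mock at 2 h, a difference of 1.33 or 2.51-fold. At 4 h they were 6.45 ± 0.07 and 3.73 ± 0.22, 6.57-fold apart, and at 10 h 6.51 ± 0.63 and 3.34 ± 0.18, 9.02-fold apart. Averaged over the 3 times, the level was 5.3-fold higher after UPD. In order of level the groups ran UPD at 10 h, UPD at 4 h, UPD at 2 h, Mock at 2 h, Mock at 4 h and Mock at 10 h. The arrays of UPD at 10 h and 4 h overlapped, whereas no other neighbours in this order did. The difference of 3.17 at 10 h was 3.82 with quantile normalization, 3.62 without UPD replicate 1 and 2.73 without UPD replicate 2.

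**Figure D1:**
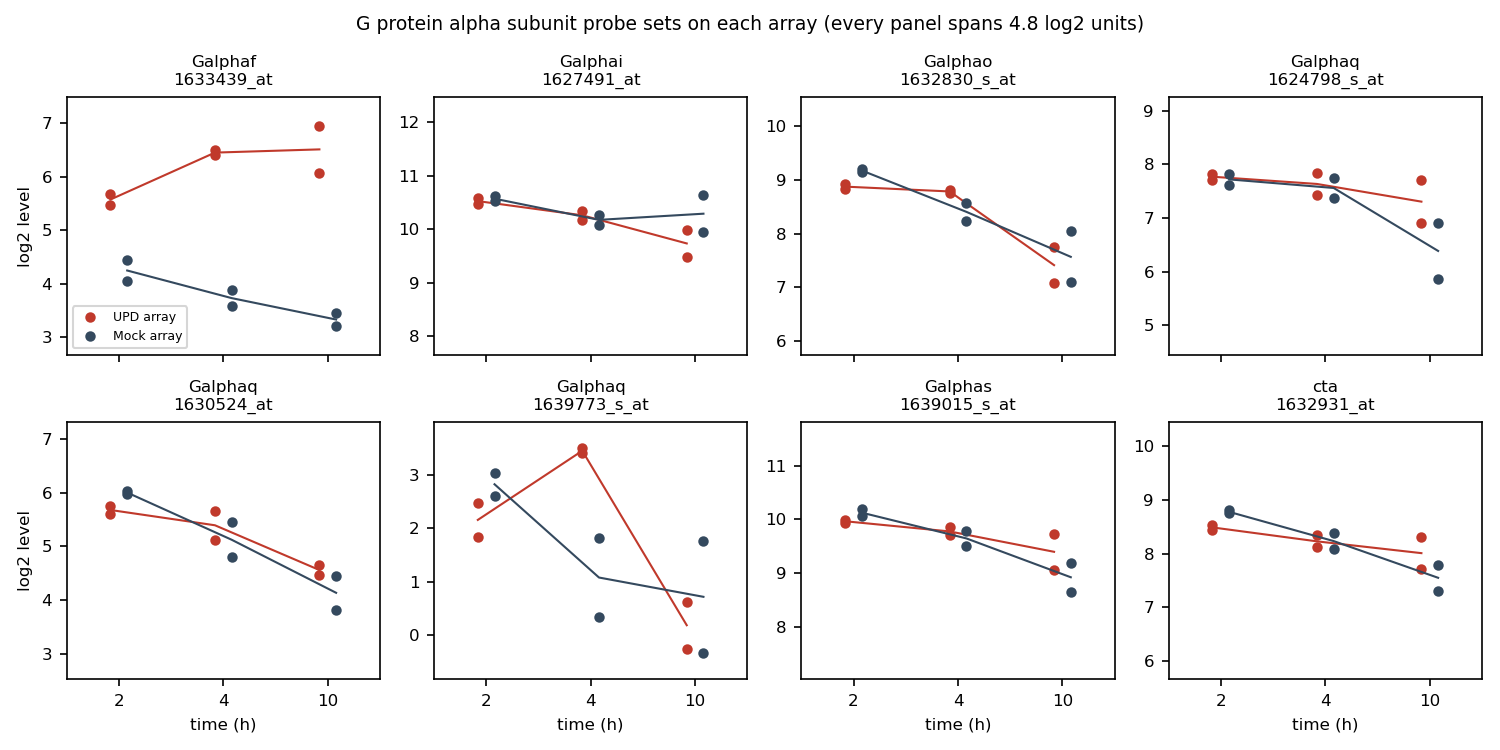
Deposited log2 level (vertical axis) of each probe set of the 6 alpha subunit genes against hours after addition of medium, with 1 point per array, UPD and Mock in separate colours and lines through the means of 2 arrays. The Galphaf points of UPD lie at 5.47 to 6.95 and those of Mock at 3.21 to 4.44 without overlap. Among the other subunits the widest gap is that of the dim Galphaq probe set 1639773_s_at at 4 h, with 3.40 and 3.49 after UPD against 0.35 and 1.81 after Mock.

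The contrasts between times inside a medium were tested with limma's moderated test, in 1 model of 6 group means over all 12 arrays. For Galphaf they are not independent of its choice, since they use the same arrays and together make up the growth of its difference between media from 1.33 to 3.17. A probe set was called when its p, adjusted by the Benjamini-Hochberg method over 18769 probe sets, was under 0.05. In UPD medium the Galphaf level at 10 h was 0.93 above that at 2 h (SE 0.38, 95% confidence interval 0.05 to 1.82), with limma adjusted p = 0.163. In Mock medium the level at 10 h was below that at 2 h, a difference of −0.91 (SE 0.38, −1.79 to −0.03), with limma adjusted p = 0.336. Neither difference was called, and their opposite directions partly restate the choice of the gene. In the UPD contrast 9.46% of all probe sets were called, mostly lower, and in the Mock contrast 0% were. Probe sets above the median level were at a median of −0.80 in that UPD contrast, which puts Galphaf 1.74 above them. Over 18 other settings the UPD change ran from 0.49 to 2.02 and was called in 2. These were quantile normalization, at 2.02 with limma adjusted p = 0.0102, and the filter on dim probe sets, with limma adjusted p = 0.0453. As Galphaf was chosen on the same UPD arrays, these 2 calls are no independent evidence of a change.

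Galphai, Galphao, Galphaq, Galphas and cta were tested between UPD and Mock, as Galphaf was not, and none was called at any time. Of all probe sets, 0 were called higher at 2 h, 0 at 4 h and 0.107% at 10 h, so this does not set them apart from Galphaf. Galphai, the alpha subunit that inhibits adenylyl cyclase and orients asymmetric cell division, gave close values in both media at 2 and 4 h. It read 10.47 and 10.58 after UPD against 10.62 and 10.52 after Mock at 2 h, 10.34 and 10.18 against 10.27 and 10.08 at 4 h, and 9.49 and 9.98 against 10.63 and 9.95 at 10 h. The media overlapped at all 3 times, with differences of −0.04, 0.08 and −0.56. The 95% interval at 10 h, −1.36 to 0.25, contains the median of bright probe sets.

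Galphao, which couples to Frizzled and to the glial receptor Moody in flies, lay below Mock after UPD at 2 h and above it at 4 h, by small amounts. It read 8.83 and 8.92 after UPD against 9.14 and 9.21 after Mock at 2 h, and 8.75 and 8.82 against 8.24 and 8.57 at 4 h. At 10 h the media overlapped, with 7.07 and 7.75 against 7.09 and 8.04. The differences were −0.30 (SE 0.41), 0.39 and −0.16, and limma's adjusted p was 1.0, 1.0 and 0.905.

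Galphas, which stimulates adenylyl cyclase, and cta, the alpha subunit of the G12/13 class known for its part in fly gastrulation, gave nearly the same pattern. Galphas read 9.94 and 9.99 after UPD against 10.19 and 10.06 after Mock at 2 h, 9.85 and 9.70 against 9.50 and 9.79 at 4 h, and 9.06 and 9.73 against 8.65 and 9.19 at 10 h. For cta the values were 8.44 and 8.54 against 8.75 and 8.81 at 2 h, 8.34 and 8.12 against 8.08 and 8.39 at 4 h, and 7.71 and 8.31 against 7.31 and 7.79 at 10 h. Both were lower after UPD without overlap at 2 h and overlapped at 4 and 10 h. The differences at 10 h were 0.48 for Galphas (95% interval −0.34 to 1.30) and 0.46 for cta (−0.34 to 1.25), with limma adjusted p = 0.566 and 0.572.

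Galphaq, which activates phospholipase C, as in fly phototransduction, was read by 3 probe sets that did not move alike. The brightest, 1624798_s_at, read 7.71 and 7.83 after UPD against 7.83 and 7.61 after Mock at 2 h, 7.84 and 7.43 against 7.38 and 7.74 at 4 h, and 6.90 and 7.71 against 5.86 and 6.91 at 10 h. Its difference of 0.92 at 10 h (95% interval −0.14 to 1.98, limma adjusted p = 0.357) was 0.40 without Mock replicate 1 and 1.44 without Mock replicate 2. The probe set 1630524_at read 5.61 and 5.75 after UPD against 6.03 and 5.98 after Mock at 2 h, and 4.47 and 4.65 against 3.82 and 4.45 at 10 h. It was thus 0.42 higher at 10 h and on the other side at 2 h (−0.33), without array overlap at either time, and it overlapped at 4 h (0.27). The dim probe set 1639773_s_at, whose mean level is just under the median, read 3.40 and 3.49 after UPD against 0.35 and 1.81 after Mock at 4 h, a difference of 2.37 (SE 0.76) with unadjusted p = 0.0157 and limma adjusted p = 0.988. At 2 and 10 h its difference was −0.66 and −0.53, so it gave no common direction. The s_at suffix of 1624798_s_at and 1639773_s_at marks probe sets that can match several transcripts, so differences among the 3 are not assigned to isoforms.

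Across the 5 genes with their 7 probe sets, 0 were called at 2 h, where 0.00533% of all probe sets were, and 0 at 4 h, where 0% were. At 10 h 0 of 7 were called against 1.06% of all, and for the mean over the 3 times 0 of 7 against 0%. At an unadjusted p under 0.05 limma gave 0 of 7 at 2 h, 1 at 4 h, 0 at 10 h and 0 for the mean. At 2 h the UPD arrays of 5 of the 7 lay below the Mock arrays, as did those of 31.2% of all probe sets and 44.3% of those above the median level. At 4 h 2 of the 7 lay above Mock without overlap, against 13.9% of all, and at 10 h 1 of the 7, against 13.7%. The intervals leave room for changes: at 10 h they reached from −2.31 to 1.98 over the 7 probe sets. The 3 comparisons between media share no arrays, and the mean is made from them. The limma F test of whether the UPD effect differs between times, added after the values were seen, gave adjusted p from 0.532 to 0.925 for the 7 probe sets.

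**Figure D2:**
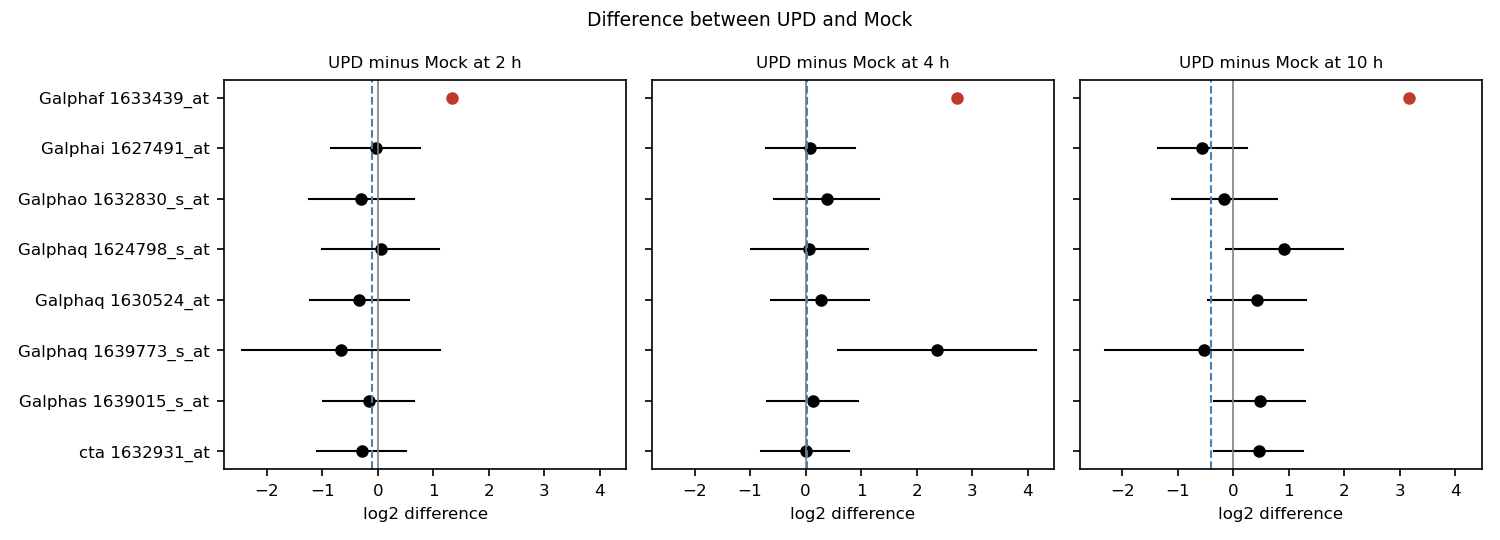
Difference in log2 level, UPD minus Mock, of each alpha subunit probe set at 2, 4 and 10 h. Black points carry 95% confidence intervals from limma, Galphaf in red is drawn without an interval because it was chosen on this difference, and the dashed line is the median of probe sets above the median level. Galphaf lies at 1.33, 2.72 and 3.17, and the intervals of all other probe sets include 0 except that of 1639773_s_at of Galphaq at 4 h.

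The 7 probe sets of Galphai, Galphao, Galphaq, Galphas and cta had lower mean levels at 10 h than at 2 h in both media, and none was called. In Mock medium all 7 differences were negative and 6 of the 7 were without array overlap, Galphai being the exception, where 31.4% of all probe sets and 49.3% of those above the median level were lower without overlap. Galphao stood at 9.14 and 9.21 at 2 h and 7.09 and 8.04 at 10 h, a difference of −1.61 (SE 0.41) with limma adjusted p = 0.265. Galphas was at −1.21 and cta at −1.23, each with limma adjusted p = 0.274. The 3 probe sets of Galphaq were at −1.34, −1.87 and −2.10, with 1630524_at going from 6.03 and 5.98 to 3.82 and 4.45. No adjusted p passed, and 0% of all probe sets were, although 6 of the 7 had an unadjusted p under 0.05, as had 2704 of all probe sets. The call depended on the variance model: with a variance trend and robust moderation 5 of the 7 were called lower, where 4.5% of all probe sets were called. They were Galphao, 2 probe sets of Galphaq, Galphas and cta, with limma adjusted p from 0.000919 to 0.0114.

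In UPD medium all 7 were again lower at 10 h without overlap, where 38% of all probe sets and 66.9% of those above the median level were. Galphao was at −1.47 (SE 0.41), going from 8.83 and 8.92 to 7.07 and 7.75, with limma adjusted p = 0.063. The other brightest probe sets were at −0.79 for Galphai, −0.46 for Galphaq, −0.57 for Galphas and −0.48 for cta, against the median of −0.80 for bright probe sets. With quantile normalization the sign turned for cta (0.29) and for 2 probe sets of Galphaq (0.45 and 0.14). The limma adjusted p of Galphao was 0.0112 when dim probe sets were filtered out and 0.000239 with the variance trend. The probe set 1630524_at of Galphaq had 0.0239 with the filter, where 40.8% of the tested probe sets were called. Both contrasts between times use the 2 h and 10 h arrays that also enter the comparisons of the media.

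**Figure D3:**
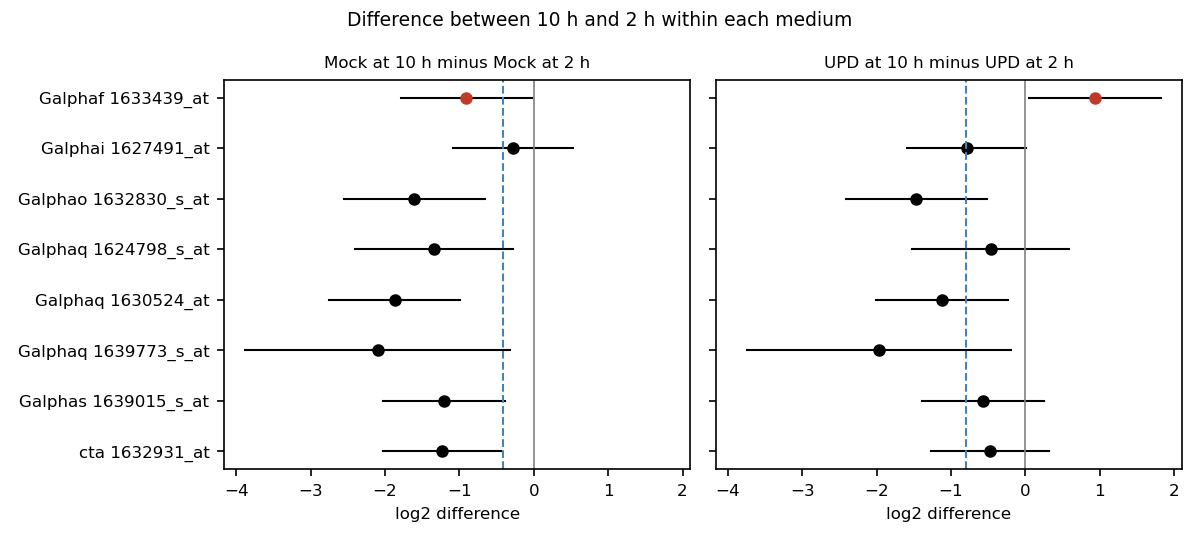
Difference in log2 level between 10 h and 2 h within Mock and within UPD medium for each alpha subunit probe set, with 95% confidence intervals from limma. The dashed line is the median of probe sets above the median level, −0.41 in Mock and −0.80 in UPD. Galphaf alone lies on opposite sides of 0 in the media, at −0.91 and 0.93, with the deposited scaling.

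Galphao, Galphaq, Galphas and cta varied together over the arrays, and Galphai did so less. Over 12 arrays, the brightest probe sets of the 5 genes had Pearson correlations from 0.12 to 0.98 in 10 pairs, with a median of 0.83. The highest was that of Galphas with cta (r = 0.98), and the lowest values were those of Galphai, from 0.12 to 0.55. Galphaf had r from −0.26 to 0.42 with the other 7 probe sets. These are descriptions over arrays that share groups, times and scaling, so the lower levels at 10 h are part of them. No correlations among other bright probe sets are set beside them.

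The transcripts whose pattern was most like that of Galphaf came from other gene families. They were sought among 7847 single-gene probe sets above the median level, by Pearson correlation with Galphaf over the 12 arrays. The first was Spn31A, which belongs to the serpins, inhibitors of proteases (r = 0.968), followed by CG13559 (0.944), the small heat shock protein gene Hsp27 (0.930), CG4793 (0.927) and cDIP (0.901), which encodes a leucine-rich repeat protein. As the media lie apart, the correlation over all arrays largely restates that difference. Within the 6 UPD arrays r was 0.76, 0.65, 0.47, 0.74 and 0.76 in the same order, and within the 6 Mock arrays it was 0.81, 0.54, 0.97, 0.90 and 0.39.

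The 5 genes shared the separation between media, largely through their selection, and differed in its course. Spn31A read 6.97 and 7.16 after UPD against 5.83 and 5.73 after Mock at 2 h, 7.14 and 7.19 against 5.09 and 5.05 at 4 h, and 6.93 and 7.49 against 5.41 and 4.82 at 10 h. Its difference stayed close to 2 from 4 h on (2.09 and 2.10). Hsp27 was 0.50, 1.47 and 1.48 higher after UPD at the 3 times, and CG4793 0.72, 1.73 and 3.85. CG13559 was 1.56, 1.92 and 2.91 higher. The cDIP probe set exceeded the level limit only through its UPD arrays, which read 2.90 to 5.99. Its Mock means of 0.41, −0.37 and −0.55 lay under the median level of 1.74, so the size of its difference is not given. These genes were selected for likeness to Galphaf, so their differences are given with no test.

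**Figure D4:**
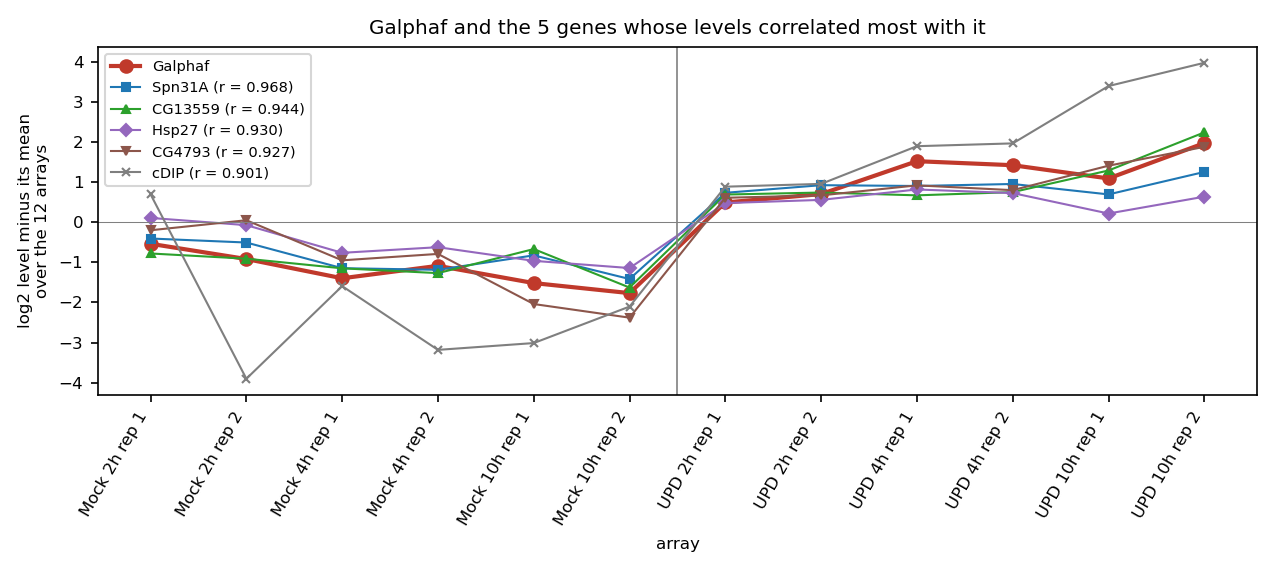
Log2 level of Galphaf and of the 5 genes most correlated with it, each centred on its mean over the 12 arrays, with the 6 Mock arrays on the left and the 6 UPD arrays on the right. All 6 lines step up between the media, which largely follows from how the genes were picked. The correlations with Galphaf over the 12 arrays run from 0.901 to 0.968. The lowest is that of cDIP, which passed the level limit only through its UPD arrays.

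Other genes of G protein signalling were taken from lists of 70 genes in 4 roles, of which 55 were measured and 30 lay above the median level. Between UPD and Mock, limma called 0 of the 55 at 2 h, 0 at 4 h, 2 at 10 h and 0 for the mean, with 2, 1, 19 and 11 at an unadjusted p under 0.05. The 2 called at 10 h were lower after UPD (3.64% of the 55, against 0.954% of all probe sets called lower). Between 10 and 2 h, 0 were called in Mock, with 13 at an unadjusted p under 0.05. In UPD 11 were called, all lower (20%, against 8.46% of all probe sets). Among probe sets above the median level alone, where the filter calls 40.8% of all, 17 of 30 were called. The median UPD 10 h minus 2 h difference of the 30 was −1.24, against −0.80 for bright probe sets, and 10 of the 11 called genes lie in the longest tertile of genes, whose median was −1.37.

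Of 5 other subunit genes 4 were measured, and only CG17760 had UPD arrays above Mock at all 3 times, without being called. CG17760 is an alpha subunit related to Galphaq by sequence. It read 9.47 and 9.43 after UPD against 9.05 and 9.12 after Mock at 2 h, 9.07 and 8.98 against 8.48 and 8.56 at 4 h, and 8.75 and 9.56 against 8.23 and 8.02 at 10 h. UPD lay above Mock without overlap at each of the 3 times, as for 78 of all probe sets (0.416%). Unlike for Galphaf, not all of its UPD arrays lay above all of its Mock arrays. The differences were 0.36, 0.51 and 1.03 (SE 0.34), with limma adjusted p of 1.0, 1.0 and 0.174, and the mean was 0.63 (SE 0.20, limma adjusted p = 0.356). Over 18 other settings the difference at 10 h ran from 0.62 to 1.44 and was called in 3, with quantile normalization, the filter or the variance trend. Gbeta5, the beta subunit that pairs with RGS proteins in place of gamma subunits, was at 0.26, −0.27 and −0.98. Gbeta76C, the beta subunit of the photoreceptors, was at a low mean level of 2.65 and at −2.59 (SE 0.83, limma adjusted p = 0.906), −0.85 and −0.71. CG30054, at a mean level of 1.94, had an SE of 1.48. Between 10 and 2 h in Mock, Gbeta5 was at 0.80, CG17760 at −0.96, Gbeta76C at −1.42 and CG30054 at −0.52. The first 3 were without array overlap, as were 44.5% of all probe sets in either direction. In UPD, Gbeta5 was at −0.44, CG17760 at −0.29, Gbeta76C at 0.46 and CG30054 at 0.11. None was called, though the Mock difference of CG17760 was with the variance trend (limma adjusted p = 0.0468), where 4.5% of all probe sets were.

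Among 11 regulators, all measured, 0 were called between the media and 3 fell between 10 and 2 h in UPD, where 8.46% of all probe sets did. Axn, which carries an RGS domain and is the scaffold of beta-catenin destruction, was at −1.96 (SE 0.29, limma adjusted p = 0.0167). The RGS gene loco, whose product speeds GTP cleavage by Galphai and Galphao, read 8.89 and 8.84 at 2 h and 6.95 and 7.20 at 10 h in UPD (−1.80, limma adjusted p = 0.0222). In Mock it read 9.03 and 8.97 at 2 h and 8.90 and 8.30 at 10 h. Dhit, also an RGS gene, was at −2.30 (limma adjusted p = 0.0254). The bright regulators ric8a, a chaperone and exchange factor of alpha subunits, and the receptor kinase gene Gprk1 were at −0.93 and −0.32 and were not called. In Mock, Axn was at −0.73 and Dhit at −1.16 between 10 and 2 h, and neither was called.

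Of 22 effectors 15 were measured, of which 7 fell between 10 and 2 h in UPD and 1 was lower after UPD than after Mock at 10 h, rut. Of all probe sets 8.46% and 0.954% were called lower in these contrasts. The product of rut is a calcium-responsive adenylyl cyclase known from olfactory learning. It read 5.30 and 5.29 after UPD at 2 h, 5.54 and 5.39 at 4 h, and only 2.86 and 2.65 by 10 h. In Mock its level stayed between 5.19 and 5.74 on all 6 arrays. The difference at 10 h was −2.64 (SE 0.30, limma adjusted p = 0.027), and the one between 10 and 2 h in UPD was −2.54 (SE 0.30, limma adjusted p = 0.0127). In 18 other settings the rut difference at 10 h ran from −2.80 to −2.53, and it was called in 7 of them.

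The other effectors that fell in UPD included the cyclase genes Ac76E (−2.38, limma adjusted p = 0.0222) and Ac13E (−1.81, 0.0354). Itpr, the receptor that releases calcium in response to inositol trisphosphate, was at −3.69 (SE 0.60, limma adjusted p = 0.0199), from 6.57 and 6.30 at 2 h to 1.93 and 3.55 at 10 h. CrebB, a transcription factor that responds to cyclic AMP, was at −2.28 (limma adjusted p = 0.0301). The phosphodiesterase genes dnc (−1.38) and Pde11 (−1.93) also passed and are named outside the naming rule, after their values were seen. Both depended on the scaling: with quantile normalization dnc was at −0.16 and Pde11 at −0.75, with limma adjusted p = 0.679 and 0.294. Between 10 and 2 h in Mock, Ac76E was at −1.02, Ac13E at −0.44 and Itpr at −1.42. CrebB was at −0.70, dnc at −0.51 and Pde11 at −1.23 there. None of these Mock differences was called. None of these genes was called between the media at 10 h, so their falls are not shown to be particular to UPD. The other 8 effectors measured were not called.

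Receptors and their ligand were mostly dim: of 25 measured, 7 lay above the median level. One of the 25, mtt, a receptor of the metabotropic glutamate type, was called lower at 10 h after UPD than after Mock (−3.77, limma adjusted p = 0.0399) and lower at 10 h than at 2 h in UPD (−2.79, limma adjusted p = 0.0301). Of 17 other settings these calls held in 3 and 7, and the filter removed the probe set. Its mean level was 1.22, under the median level, and it read −1.36 and −0.63 after UPD against 2.21 and 3.34 after Mock at 10 h. The brightest of the group, smo, fog and moody, were at −0.74, −1.07 and −1.83 between 10 and 2 h in UPD, none of them called. Here smo is the transducer of Hedgehog, fog the secreted ligand upstream of cta, and moody the glial receptor named above.

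These calls depended on the arrays and the scaling. With quantile normalization 3 of the 11 genes lower between 10 and 2 h in UPD were still called, rut, loco and mtt, and 8 were not. Of those 8, Ac13E went from −1.81 to −0.65, Axn from −1.96 to −0.79, Dhit from −2.30 to −1.19 and Ac76E from −2.38 to −1.25, while Itpr was at −3.20 and CrebB at −1.57. Of the 55 genes, the number lower between 10 and 2 h in UPD was 4 with quantile normalization and 11 with a common median. It was 18 with the variance trend, 6 with the replicate number as a block and 0 with only the arrays compared. The filter gave 17 of the 30 genes it kept. With 1 array left out, the number went down for most arrays and up for the others. At 10 h between media the number was 8 lower and 2 higher with the variance trend. It was 9 lower and 1 higher with the filter, and 3 lower and 1 higher with quantile normalization. It was 0 with only the arrays compared and 0 with the replicate number as a block, where rut and mtt had limma adjusted p = 0.0736 and 0.0832. With 1 array left out, the calls of rut and mtt were lost for most arrays. Without UPD 10 h replicate 2 the number went up.

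**Figure D5:**
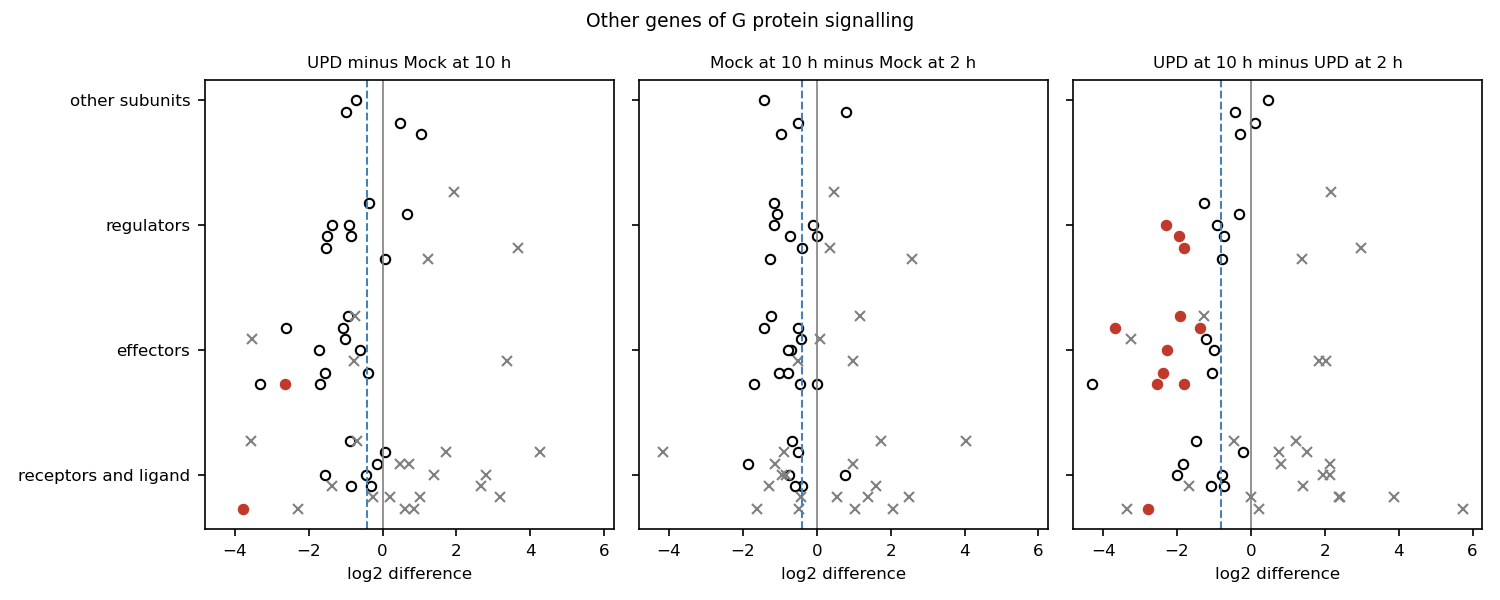
Log2 difference of the 55 other G protein signalling genes by role, in 3 panels for UPD minus Mock at 10 h and for 10 h minus 2 h in Mock and in UPD. Filled red points are called by limma, open points lie above the median level and are not called, grey crosses lie below that level, and the dashed line is the median of bright probe sets. The called genes all lie below 0, 2 in the first panel, 0 in the second and 11 in the third.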

How the data were processed

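Transcript levels of 12 Kc167 samples were used as deposited, 1 value per probe set and array. The deposited values were taken as log2, a base inferred from their range of −15.82 to 13.96, since no label states it. No source used here gives the summarising tool or the normalization. The UPD arrays share a median of 2.327 and the Mock arrays 2.375. Of 18952 probe sets, 183 controls were left out. Gene names follow GEO's annotation of the platform, brought up to date by gene ID with RefSeq (Release 6). Of the 18769 tested, 13647 have 1 gene, 402 several and 4720 none listed, and 13544 were matched by gene ID. No sequences or coordinates are given.

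Samples were grouped by title. limma 3.58.1 in R 4.3.3 fitted 6 group means to all arrays (6 residual degrees of freedom, prior SD 0.57, prior degrees of freedom 1.54), and two-sided p-values were adjusted by Benjamini-Hochberg over 18769 probe sets. The fit was also run on simulated data with 1 spread per probe set for all arrays. Since replicates here were looser at 10 h, that run cannot judge the 10 h tests. SE are limma's and SD are those of 2 arrays. Replicates share only a number: their deviations correlated between groups by −0.09 to 0.21.

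Named were all probe sets of the members, the 5 genes most correlated with Galphaf, the measured other subunits, and for each other role up to 4 called genes and the 3 brightest. One bright effector gene that this rule names is not reported here. A pair of called effectors was named beside the rule. Members and lists were chosen with earlier results of these data known. Alternatives were quantile normalization, a common median, a filter on dim probe sets, a variance trend with robust moderation, only the arrays compared, a replicate block, each array left out, and the mean of a gene's probe sets. The F test and the checks of the correlations were added after the values were seen.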

Additional observations from a re-analysis of the deposited data

Results flagged for a closer look

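In the alpha subunits, 3 probe sets had UPD arrays below both Mock arrays at 2 h and above both at a later time. Of all probe sets, 42.7% at 2 h, 32.9% at 4 h and 37.7% at 10 h lay without overlap on either side. The share of all probe sets that changed side between times was not counted, so the 3 are not set apart by this. The Galphao difference between UPD and Mock was −0.30 at 2 h and 0.39 at 4 h. For probe set 1630524_at of Galphaq it was −0.33 at 2 h and 0.42 at 10 h, and for the dim probe set 1639773_s_at of Galphaq it was −0.66 at 2 h and 2.37 at 4 h. These pairs of times were not tested against each other on their own. The limma F test over the 3 times gave adjusted p = 0.925, 0.888 and 0.532, with unadjusted p = 0.489, 0.383 and 0.0408, and called 0 of 18769 probe sets, with 1671 at an unadjusted p under 0.05.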

How the results depend on the processing

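No tested member was called between UPD and Mock under any alternative. Galphaf, given with no test, lay above Mock in all of them. Its difference was 1.13 to 1.52 at 2 h and 2.56 to 2.87 at 4 h. It was 2.73 to 3.82 at 10 h and 2.02 to 2.59 for the mean. The correlations of the 5 genes most like Galphaf stayed within 0.873 and 0.975. With 2 arrays a group and an SE of at least 0.34 for members at 1 time, modest differences cannot be detected. Where values changed, the cause was not tested. Fits on fewer arrays have fewer degrees of freedom and also a different pooled spread. With 1 array left out, counts of calls moved up as well as down.

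Counts of called probe sets over the whole array moved widely. At 2 h the count was 1, and 4 with the variance trend, 0 with the replicate block, 0 with only the arrays compared and 0 to 1 with 1 array left out. At 4 h it was 0, and 6 with the variance trend. At 10 h it was 199, and 578 with quantile normalization, 111 with a common median, 1804 with the filter, 1899 with the variance trend, 1 with the replicate block, 0 with only the arrays compared and 0 to 468 with 1 array left out. Of these calls, 20 were higher and 179 lower, against 172 and 406 with quantile normalization. For the mean it was 0, and 27 with quantile normalization, 3 with a common median, 152 with the filter, 351 with the variance trend and 0 to 7 with 1 array left out. For Mock 10 h minus 2 h it was 0, and 43 with the filter, 845 with the variance trend and 0 to 84 with 1 array left out. For UPD 10 h minus 2 h it was 1776, with 189 higher and 1587 lower. It was 471 with quantile normalization (136 higher and 335 lower), 3830 with the filter, 4020 with the variance trend, 723 with the replicate block, 0 with only the arrays compared and 1 to 2902 with 1 array left out, the 1 being without either UPD 2 h array. The replicate number as a block changed no call of a member.

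Some signs turned, also where differences were not near 0. With quantile normalization, UPD minus Mock became 0.02 at 2 h and −0.01 at 4 h for Galphai, and 0.31 at 10 h and 0.14 for the mean for Galphao. UPD 10 h minus 2 h went from −0.46 to 0.45 for 1624798_s_at and from −1.12 to 0.14 for 1630524_at of Galphaq, from −0.48 to 0.29 for cta, from −0.74 to 0.19 for smo, from −0.32 to 0.52 for Gprk1 and to 0.27 for CG17760. With a common median, UPD minus Mock became 0.01 for Galphai at 2 h, 0.05 for cta at 4 h and 0.03 for Galphao in the mean. From only the arrays of 2 and 4 h the mean was 0.02 for Galphai, 0.04 for Galphao, −0.03 for 1630524_at, −0.01 for Galphas and −0.15 for cta. The mean of its probe sets gave Galphaq −0.31 at 2 h.

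With 1 array left out, UPD minus Mock ran from −0.10 to 0.02 at 2 h and from −0.01 to 0.18 at 4 h for Galphai, from −0.06 to 0.16 at 2 h and −0.13 to 0.28 at 4 h for 1624798_s_at, from −0.06 to 0.59 at 4 h for 1630524_at, and from −1.57 to 0.51 at 10 h for 1639773_s_at. It ran from −0.02 to 0.27 at 4 h for Galphas, from −0.15 to 0.15 at 4 h and −0.05 to 0.16 in the mean for cta, and from −0.63 to 0.32 at 10 h and −0.18 to 0.14 in the mean for Galphao. It ran from −0.66 to 0.12 at 4 h for Gbeta5, from −2.05 to 0.63 at 10 h for Gbeta76C, and from −0.43 to 0.14, −1.02 to 4.24 and −0.28 to 1.25 at 2, 4 and 10 h for CG30054. Mock 10 h minus 2 h ran from −0.62 to 0.06 for Galphai, and UPD 10 h minus 2 h from −0.70 to 0.11 for CG17760. The Galphao call in UPD 10 h minus 2 h appeared without either Mock 10 h array (limma adjusted p = 0.028).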
